A study of Mus musculus with 12 samples.

Results

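The genes described here are 10 mouse genes that mark microglia and macrophages, most of them coding for proteins of the cell surface: Csf1r, Itgam, Aif1, Cd68, Ptprc, Tyrobp, Trem2, P2ry12, Tmem119 and Cx3cr1. They were chosen by name for the cell type, and every probe whose transcript accession belonged to 1 of these symbols was kept. A transcript was matched for 9 of the 10 genes, each with 3 probes, which makes 27 of the 72000 probes on the array and 9 of the 25128 genes and unmatched targets that were tested. No transcript was matched to Cd68, which is not analysed here.

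Expression was measured with single-color NimbleGen arrays in 3 untreated mouse cell lines, each grown to confluence on 4 separate plates in medium with fetal bovine serum, with 1 array per plate. BV2 is an immortalized microglial line, N18 is a neuroblastoma line, and AtT20 is a neuroendocrine line from a pituitary tumor. Each line is 1 continuous culture, so the spread between plates is that of repeated cultures of a line and not of several animals or clones. The array format holds 4 arrays on a slide, and which arrays shared a slide was not given in the sources used here, so slide and line cannot be told apart.

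Microglia are the resident macrophages of the brain, and they depend on the receptor tyrosine kinase CSF1R, which binds the cytokines CSF1 and IL34. Their surface carries the integrin CD11b (Itgam), which pairs with the beta chain ITGB2, the phosphatase CD45 (Ptprc) of all leukocytes, and TREM2, a lipid receptor that signals through the adaptor TYROBP and the kinase SYK. The purinergic receptor P2RY12, the fractalkine receptor CX3CR1 and TMEM119 are known for high expression in microglia of the healthy brain and for loss in culture, and AIF1 (IBA1) is a calcium-binding protein of the cytosol that is widely used to stain these cells.

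Values are given on 2 scales. For levels, the probes of a gene were averaged on each plate, and from the log2 of this average the mean log2 of 10 seminal proteins, which these lines should not express, was subtracted. A gene was above the threshold when its mean level over 4 plates exceeded 2 SD of the seminal proteins, which was 0.56 ± 0.15 (SD, n = 4 plates) in BV2 cells, 0.74 ± 0.10 in N18 cells and 0.37 ± 0.11 on the plates labelled AtT20. Differences between lines are log2 differences after quantile normalization of the 12 arrays, tested in limma and adjusted by Benjamini-Hochberg over all 25128 genes and targets. Levels of different genes are not compared, since their probes differ.

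Before normalization the median intensity of an array was between 9.90 and 10.28 (log2) for BV2, between 10.10 and 10.54 for N18 and between 10.85 and 11.50 for the plates labelled AtT20. The interquartile range was 1.28 to 1.73 for BV2, 1.91 to 2.21 for N18 and 0.38 to 0.78 for the plates labelled AtT20, so intensities on the plates labelled AtT20 were brighter and much less spread. In N18 cells 13 of 16 neuroblast and neuron genes were above the threshold, beside 55.4% of all genes and targets. Of the same 16, 6 were above it in BV2 cells and 7 on the plates labelled AtT20. On the plates labelled AtT20 only Pitx1 of 7 corticotroph genes was above it, beside 35% of all. Pomc, the hormone precursor that defines the cell type, was below it there with a level of 0.29 ± 0.26. Of the same 7, 2 were above the threshold in BV2 cells, among them Pomc at 0.67 ± 0.12, and 3 in N18 cells. Comparisons with the plates labelled AtT20 are therefore given after the comparison of BV2 with N18.

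In BV2 cells 6 of the 9 measured genes were above the threshold (Csf1r, Itgam, Ptprc, Tyrobp, Trem2 and Tmem119), against 53.3% of all genes and targets. Tmem119 was no longer above it with the median of the probes, with at least 2 probes required or with olfactory receptor genes as controls, and Trem2 with the last of these. In N18 cells 3 of the 9 were above it (Itgam, Tyrobp and Trem2), against 55.4% of all. On the plates labelled AtT20 2 of the 9 were above it (Trem2 and Tmem119), against 35% of all. With the median of the probes these counts fell to 1 in N18 cells and 0 on the plates labelled AtT20. Of all 25128 genes and targets 12140 and 6175 were then above it. Aif1, P2ry12 and Cx3cr1 were below the threshold in each of the 3 lines. In cultures measured in bulk, fewer cells that express a gene and less RNA per cell cannot be told apart.

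**Figure D1:**
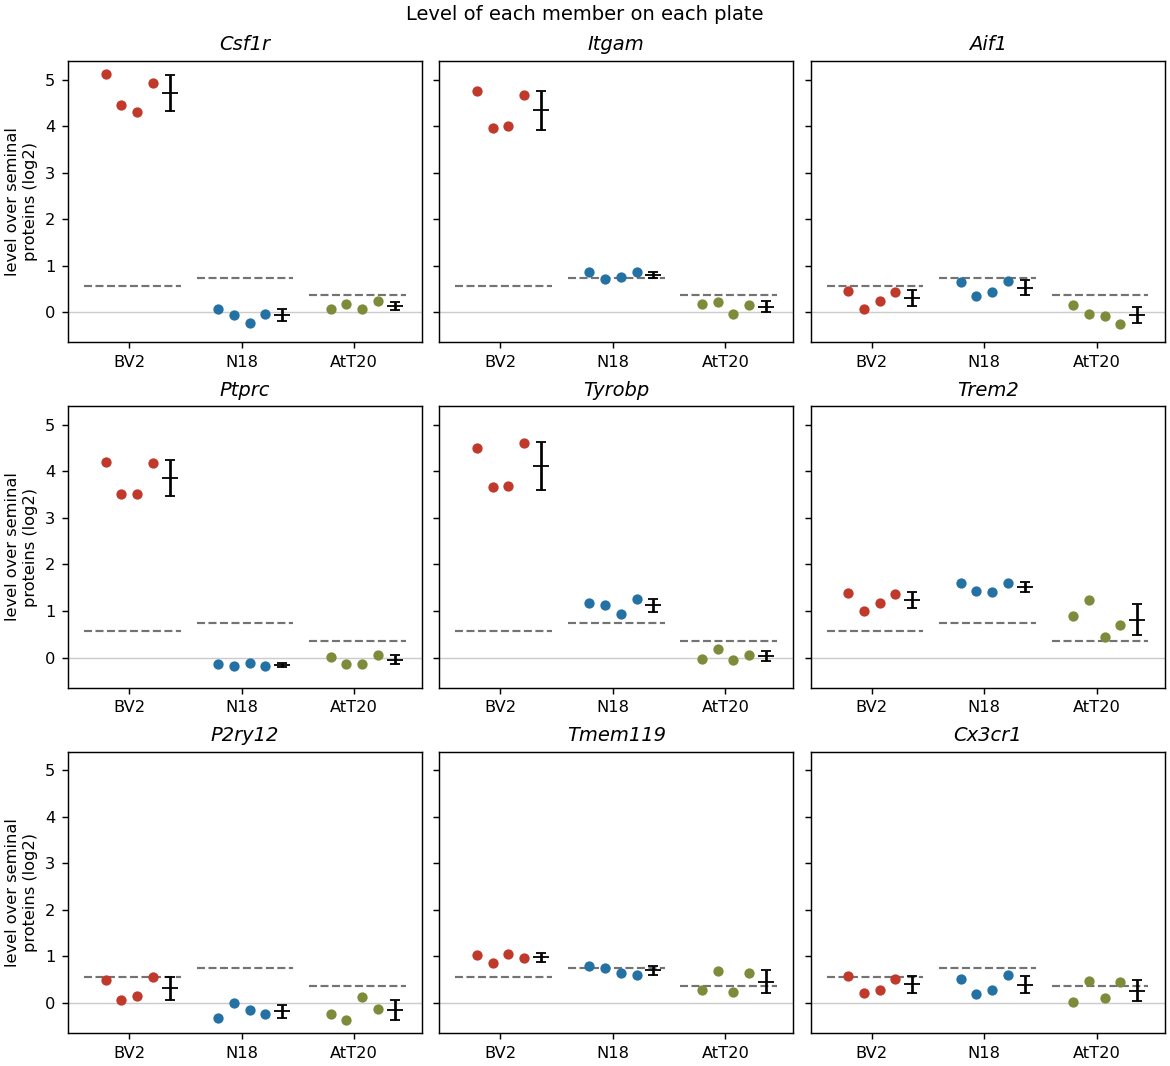
Level of each of the 9 measured genes on each plate (y axis, log2 above the seminal proteins of the same array), for BV2, N18 and the plates labelled AtT20 (x axis). Points are plates 1 to 4 from left to right, the black bar is the mean ± SD of 4 plates, and the dashed line is the threshold of the line. Csf1r, Itgam, Ptprc and Tyrobp stood between 3.52 and 5.12 on the BV2 plates, far above every plate of the other lines, and the other 5 genes did not exceed 1.61 on any plate.

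Csf1r, the receptor for CSF1 and IL34, had levels of 5.12, 4.45, 4.30 and 4.93 on BV2 plates 1 to 4. On the N18 plates it had levels of 0.07, -0.05, -0.22 and -0.03, and on the plates labelled AtT20 of 0.06, 0.17, 0.06 and 0.24. BV2 and the other lines did not overlap, and no plate outside BV2 reached the threshold. The difference between BV2 and N18 was 4.74 ± 0.11 (log2, SE, adjusted p = 1.19e-14), which was the 13th largest of all 25128 in that direction. Because Csf1r was below the threshold in N18, the fold is a lower bound, and Csf1r was at least 15.5-fold higher in BV2 cells.

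Itgam, the alpha chain of the complement receptor CR3, had levels of 4.75, 3.96, 4.00 and 4.66 in BV2 cells. In N18 cells its levels were 0.87, 0.72, 0.76 and 0.86, and on the plates labelled AtT20 they were 0.17, 0.21, -0.05 and 0.15. The N18 mean of 0.80 ± 0.07 was just above the threshold of that line, with 3 of 4 plates and 1 of 3 probes above it. Itgam was higher in BV2 than in N18 by 3.74 ± 0.12 (log2, SE, adjusted p = 3.65e-13).

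Ptprc, the CD45 phosphatase that sets the activity of Src family kinases in leukocytes, had levels of 4.19, 3.52, 3.52 and 4.19 in BV2 cells. It was at -0.15, -0.19, -0.12 and -0.19 in N18 cells and at 0.00, -0.14, -0.13 and 0.06 on the plates labelled AtT20, at the level of the seminal proteins in both. The difference between BV2 and N18 was 3.90 ± 0.11 (log2, SE, adjusted p = 8.25e-14), and Ptprc was at least 8.6-fold higher in BV2 cells.

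The promoters of Itgam and Ptprc are shown as the 250 bases before the start in RefSeq, on the strand of the gene (build GRCm38.p6, Itgam chr7:128062390-128062639, plus strand, and Ptprc chr1:138175306-138175555, minus strand). Capitals mark GAGGAA or its reverse complement TTCCTC, the core bound by PU.1, the ETS factor of the myeloid lineage. Only these letters were searched, on both strands. They are shown because both genes were among the members that stood far above the other lines in BV2 cells.
Itgam: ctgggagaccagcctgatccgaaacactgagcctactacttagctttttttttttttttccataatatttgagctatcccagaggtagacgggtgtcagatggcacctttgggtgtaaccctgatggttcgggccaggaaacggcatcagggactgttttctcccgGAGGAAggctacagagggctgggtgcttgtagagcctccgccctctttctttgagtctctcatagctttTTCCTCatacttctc
Ptprc: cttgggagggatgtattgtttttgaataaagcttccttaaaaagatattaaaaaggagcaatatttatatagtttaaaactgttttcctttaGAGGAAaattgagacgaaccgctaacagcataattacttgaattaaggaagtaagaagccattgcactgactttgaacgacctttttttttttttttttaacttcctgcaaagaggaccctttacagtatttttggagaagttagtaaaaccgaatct
The Itgam window held 2 matches, 1 on each strand, and the Ptprc window held 1. A second Ptprc start, at chr1:138175127-138175376, held 0. Among all 32851 RefSeq windows of this length, 23.3% held a match on either strand.

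Tyrobp, also called DAP12, is the adaptor that carries the signal of TREM2 and of related receptors. Its levels were 4.51, 3.66, 3.68 and 4.62 in BV2 cells, 1.18, 1.13, 0.93 and 1.26 in N18 cells and -0.03, 0.18, -0.06 and 0.05 on the plates labelled AtT20. The N18 plates all lay above the threshold and below every BV2 plate. In N18 cells probes 1 and 2 were above the threshold, with levels of 1.42 and 1.63, and probe 3 was at -0.36. Tyrobp was higher in BV2 than in N18 by 3.36 ± 0.12 (log2, SE, adjusted p = 1.96e-12).

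Trem2, the receptor that pairs with TYROBP, did not follow its adaptor. Its levels were 1.39, 1.01, 1.18 and 1.37 in BV2 cells, 1.61, 1.44, 1.42 and 1.61 in N18 cells and 0.89, 1.23, 0.45 and 0.70 on the plates labelled AtT20. All 3 lines were above the threshold, and relative to the seminal proteins the N18 plates were the highest. With the median of the probes or with at least 2 probes required, Trem2 was above the threshold in BV2 alone. After quantile normalization the difference between BV2 and N18 was 0.18 (95% interval -0.03 to 0.40, adjusted p = 0.159), and it turned to -0.28 relative to the seminal proteins, so its direction was not settled. It passed the test with the mean of log2 probes (0.26) and with the median of the probes (0.57). The signal rested largely on probe 2, with levels of 2.16 ± 0.26 in BV2 cells, 2.72 ± 0.13 in N18 cells and 1.75 ± 0.47 on the plates labelled AtT20. Probe 1 was below the threshold in each line, and probe 3 was above it in BV2 alone, at 0.75 ± 0.07 against 0.24 ± 0.12 in N18 cells and -0.31 ± 0.10 on the plates labelled AtT20.

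The cytosolic marker Aif1 had levels of 0.45, 0.07, 0.25 and 0.44 in BV2 cells, 0.66, 0.35, 0.44 and 0.67 in N18 cells and 0.15, -0.05, -0.08 and -0.25 on the plates labelled AtT20. BV2 and N18 overlapped, and their difference was 0.03 (95% interval -0.31 to 0.36, adjusted p = 0.901). Probe 1 alone was above the threshold, at 1.03 ± 0.34 in BV2 and 1.46 ± 0.21 in N18, while probes 2 and 3 lay between -0.42 and -0.20 in these lines.

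Windows of the same length before the starts of Trem2 (chr17:48346151-48346400, plus strand) and Aif1 (chr17:35176053-35176302, minus strand) are shown because these genes did not pass the test between BV2 and N18, with the same letters in capitals.
Trem2: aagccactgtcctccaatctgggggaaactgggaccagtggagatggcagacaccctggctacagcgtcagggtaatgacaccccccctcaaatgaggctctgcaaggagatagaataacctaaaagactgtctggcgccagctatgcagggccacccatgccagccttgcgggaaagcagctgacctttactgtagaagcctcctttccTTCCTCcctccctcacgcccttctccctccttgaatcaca
Aif1: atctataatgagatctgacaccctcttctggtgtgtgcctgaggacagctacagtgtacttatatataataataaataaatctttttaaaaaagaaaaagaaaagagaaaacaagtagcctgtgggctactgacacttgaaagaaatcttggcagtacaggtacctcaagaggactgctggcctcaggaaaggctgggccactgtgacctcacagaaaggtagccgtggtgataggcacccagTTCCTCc
Each held 1 match, and the windows of P2ry12 and Cx3cr1 held 0. In all, 4 of the 7 windows of 6 members held the letters, among them genes that differed between BV2 and N18 and genes that did not pass the test. Csf1r, Tyrobp and Tmem119 were not searched, so Itgam and Ptprc are the only ones of the 4 genes with a large difference that were. A match is a run of letters and not a measured binding site.

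Tmem119, a membrane protein of unsettled function, had levels of 1.03, 0.85, 1.05 and 0.97 in BV2 cells and 0.80, 0.76, 0.65 and 0.60 in N18 cells. The plates labelled AtT20 were at 0.27, 0.69, 0.23 and 0.65. Every BV2 plate was above every plate of the other lines on this scale, by a small margin. The difference of 0.48 ± 0.12 between BV2 and N18 (log2, SE) passed the test with an adjusted p of 0.00392, but it did not pass without normalization, relative to the seminal proteins or with the median of the probes, where the values were 0.31, 0.28 and 0.05. It came from probe 3, which differed by 0.90 ± 0.19, while probes 1 and 2 differed by 0.05 and -0.01.

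P2ry12, the ADP receptor that guides microglial processes, had levels of 0.49, 0.06, 0.14 and 0.57 in BV2 cells. It was at -0.32, 0.00, -0.16 and -0.24 in N18 cells and at -0.24, -0.37, 0.12 and -0.12 on the plates labelled AtT20. The BV2 plates lay above the N18 plates, though plates 2 and 3 only barely, and below the BV2 threshold in the mean of 0.32. The difference between BV2 and N18 was 0.47 (95% interval 0.04 to 0.90, adjusted p = 0.0770) and did not pass the test. It passed without plate 3 of those labelled AtT20 (0.50), without normalization (0.53) and relative to the seminal proteins (0.50). It also passed with the median of the probes (0.41) and with the 8 arrays of the pair (0.61). Of the probes, only probe 1 was above the threshold, and only in BV2 cells. Its levels were 0.74 ± 0.29 in BV2 cells, 0.19 ± 0.21 in N18 cells and -0.09 ± 0.27 on the plates labelled AtT20.

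Cx3cr1, the receptor for the neuronal chemokine CX3CL1, was at 0.58, 0.21, 0.29 and 0.51 in BV2 cells and at 0.52, 0.20, 0.27 and 0.59 in N18 cells. The plates labelled AtT20 were at 0.02, 0.47, 0.10 and 0.44. The 3 lines overlapped, and the difference between BV2 and N18 was 0.18 (95% interval -0.14 to 0.50, adjusted p = 0.376). As for Aif1, probe 1 alone was above the threshold, with levels of 1.02 ± 0.23 in BV2 cells, 1.15 ± 0.23 in N18 cells and 0.77 ± 0.53 on the plates labelled AtT20.

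Counted together, 5 of the 9 measured genes were higher in BV2 than in N18 (Csf1r, Itgam, Ptprc, Tyrobp and Tmem119) and 0 were lower, beside 40.9% of all genes and targets called in either direction and 21.9% called higher in BV2. By size the genes fell into 2 groups. Csf1r, Itgam, Ptprc and Tyrobp differed by 3.36 to 4.74, which placed them between the 13th and the 94th of all 25128 differences. The other 5 differed by at most 0.48. The difference of the median gene was 0.06 here and lay between -0.18 and 0.11 under the other scalings. Of the calls over all genes 53.5% were higher in BV2, and this share was 19.8% without normalization and 25.3% relative to the seminal proteins. Of the members, Aif1 and Trem2 changed sign with the scale in this comparison.

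The probes gave the same grouping. All 12 probes of Csf1r, Itgam, Ptprc and Tyrobp were called higher in BV2 than in N18, with differences from 2.45 for Tyrobp probe 3 to 5.16 for Csf1r probe 1. Of the 15 probes of the other genes 3 were called higher, which were Trem2 probe 3 (0.57), P2ry12 probe 2 (0.53) and Tmem119 probe 3 (0.90). Together these were 15 of 27 probes, beside 13.2% of all 72000 probes called higher in BV2. Among them P2ry12 probe 2 was below the threshold in each line, with levels of -0.02 in BV2 cells and -0.64 in N18 cells. Within a gene the probes differed in size, and the 3 Ptprc probes gave 4.60, 3.70 and 2.52.

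**Figure D2:**
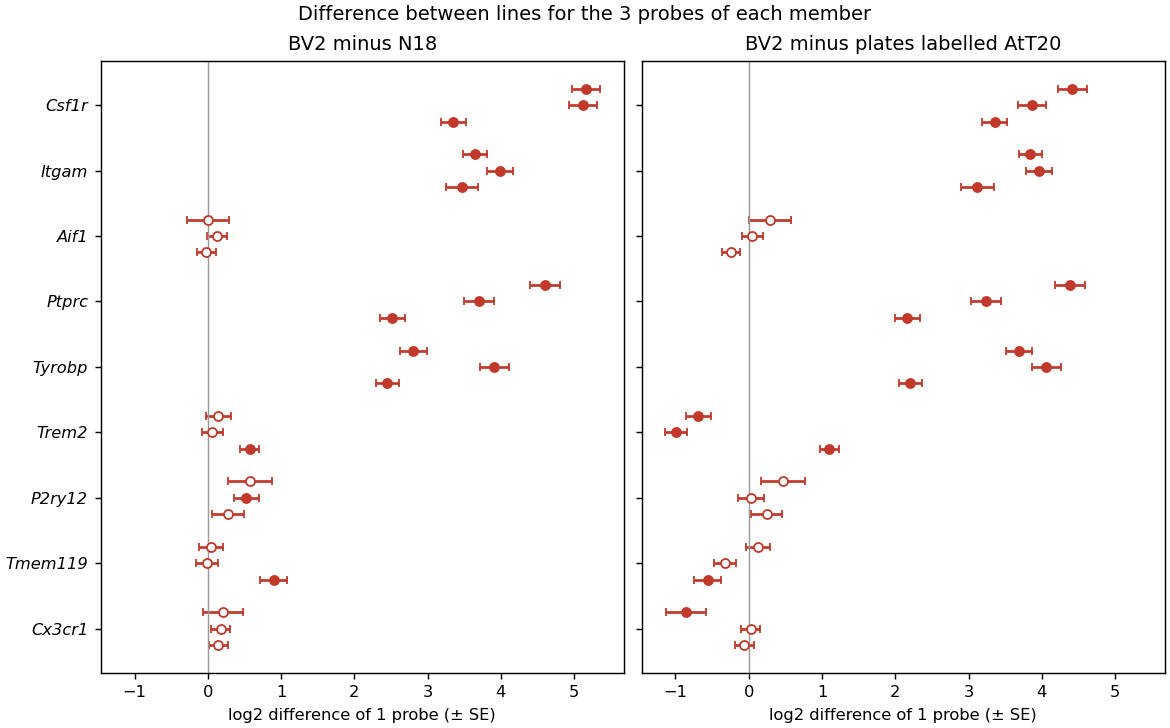
Log2 difference of each of the 3 probes of a gene (x axis, mean ± SE from limma, probes 1 to 3 from top to bottom) for BV2 minus N18 on the left and BV2 minus the plates labelled AtT20 on the right, with genes on the y axis. Filled points passed an adjusted p of 0.05 and open points did not. All 12 probes of Csf1r, Itgam, Ptprc and Tyrobp lay above 2 in both panels, and every probe of the other 5 genes lay below 1.2.

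Against the plates labelled AtT20, Csf1r was higher in BV2 by 3.96 (adjusted p = 5.56e-14), Tyrobp by 3.64 (5.13e-13), Itgam by 3.64 (3.38e-13) and Ptprc by 3.50 (1.94e-13) on the log2 scale. All 4 were below the threshold on those plates, which gives at least 7.8-fold for Csf1r, at least 6.1-fold for Itgam, at least 5.2-fold for Tyrobp and at least 4.3-fold for Ptprc. In total 7 of the 9 genes were called, beside 73.6% of all genes and targets, and 4 of the 9 were called higher in BV2, beside 26.6% of all. Of the 27 probes 13 were called higher in BV2, among them Trem2 probe 3 (1.10), beside 27.7% of all probes.

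The other 3 calls in this comparison did not keep their direction. After quantile normalization Trem2 (-0.64), Cx3cr1 (-0.54) and Tmem119 (-0.40) were lower in BV2 than on the plates labelled AtT20, but relative to the seminal proteins they were higher, by 0.42, 0.14 and 0.52. The Trem2 probes were called in opposite directions, with probes 1 and 2 at -0.69 and -0.99 and probe 3 at 1.10. For Cx3cr1 only probe 1 (-0.86) was called, and for Tmem119 only probe 3 (-0.56). The median of all genes was -0.23 after quantile normalization, -1.08 without normalization and 0.28 relative to the seminal proteins. The share of all calls that were higher in BV2 moved with it, from 36.2% to 13.5% and 74.2%. Aif1 (0.07, adjusted p = 0.714) and P2ry12 (0.25, adjusted p = 0.272) did not pass the test after quantile normalization. They passed it in opposite directions on the other scales, at 0.36 and 0.47 relative to the seminal proteins and at -1.0 and -0.89 without normalization. Relative to the seminal proteins 8 of the 9 genes were called, all higher in BV2, and Cx3cr1 was not called.

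Between N18 and the plates labelled AtT20, 5 of the 9 genes were called, beside 76.4% of all genes and targets, and 0 were called higher in N18, beside 27.8% of all. Relative to the seminal proteins the count was the opposite, with 4 members called, Itgam, Aif1, Tyrobp and Trem2, and all 4 higher in N18. After quantile normalization the differences were -0.78 for Csf1r, -0.40 for Ptprc, -0.83 for Trem2, -0.87 for Tmem119 and -0.72 for Cx3cr1, with a median over all genes of -0.25. Relative to the seminal proteins, where the median over all genes was 0.54, Trem2, Tmem119 and Cx3cr1 turned to 0.70, 0.24 and 0.14, and Csf1r and Ptprc, which were below the threshold in both lines, no longer passed the test. The share of all calls that were higher in N18 was 36.4% after quantile normalization, 24% without it and 78.8% relative to the seminal proteins. Tyrobp was 0.28 higher in N18 after quantile normalization and did not pass the test (adjusted p = 0.0517). Relative to the seminal proteins its difference was 1.09 and passed, and without normalization it was -0.30 and did not pass (adjusted p = 0.202). Tyrobp passed under 6 of 20 alternatives, each time higher in N18, with differences from 0.26 to 1.09. Of the probes 9 of 27 were called, beside 65.8% of all probes.

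**Figure D3:**
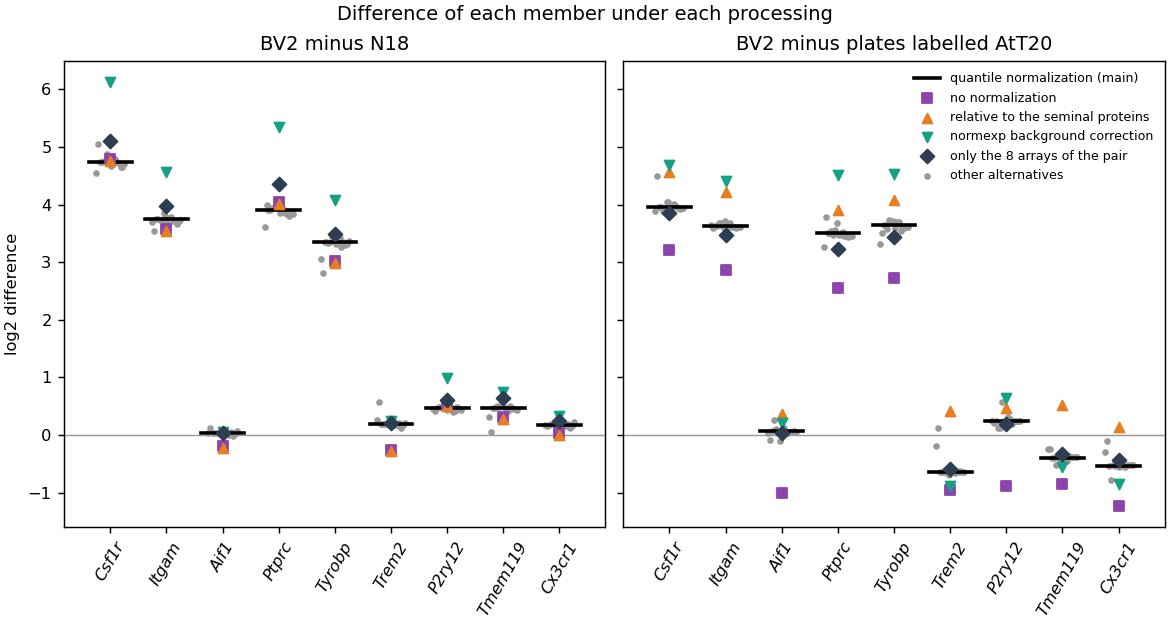
Log2 difference (y axis) of each measured gene (x axis) for BV2 minus N18 on the left and BV2 minus the plates labelled AtT20 on the right. The black bar is the value after quantile normalization, colored symbols are other scalings, and gray points are the other alternatives, including the fits that leave out 1 plate. Csf1r, Itgam, Ptprc and Tyrobp stayed above 2.5 under each of them, while each of the other 5 genes changed sign under at least 1 of them on the right.

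The 4 BV2 plates were not equally bright for these genes. Relative to the seminal proteins, Csf1r, Itgam, Ptprc and Tyrobp were each higher on plates 1 and 4 than on plates 2 and 3. Plate 2 was the lowest BV2 plate for 7 of the 9 genes, and plate 1 was the highest for 6. Such differences were not limited to these genes. The mean level of all genes and targets ranged from 0.86 to 1.15 over the BV2 plates. The median deviation of the 9 genes from their BV2 means was 0.18, -0.25, -0.17 and 0.23 on plates 1 to 4. The interquartile range of all probes was 1.73, 1.28, 1.55 and 1.65 on the same plates, and its part in this pattern was not tested. After quantile normalization the median deviation was between -0.06 and 0.07.

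The ligands and partners of these genes were taken as a list of 12. In BV2 against N18 5 were called higher, beside 21.9% of all genes and targets, 3 were called lower and 4 were not called. The median was 0.25, beside 0.06 for all genes. The beta chain of CR3, Itgb2, was higher in BV2, like Itgam, by 4.28 (adjusted p = 1.27e-14), or at least 15.3-fold. The inhibitory receptor Sirpa was higher by 4.07 (adjusted p = 7.64e-14), at least 13.7-fold, while its ligand Cd47 was lower in BV2 than in N18 by 1.39 on the log2 scale (-1.39, adjusted p = 1.07e-07), with levels of 2.92 ± 0.41 and 4.84 ± 0.23.

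Of the cytokines that bind CSF1R, Csf1 was lower in BV2 (-0.34, adjusted p = 0.0463), with levels of 0.63 ± 0.15 in BV2 and 1.44 ± 0.18 in N18, both above the threshold. Il34 did not pass the test (0.25, adjusted p = 0.277) and turned to -0.27 relative to the seminal proteins. The ligand of CX3CR1, Cx3cl1, was lower in BV2 (-0.25, adjusted p = 0.0431). The CR3 ligand Icam1 (1.51), the TREM2 ligand Apoe (0.86) and the ectonucleotidase Entpd1 (0.57), which hydrolyzes ATP and ADP, were higher in BV2. The adaptor Hcst (0.25), the checkpoint ligand Cd200 (0.01) and its receptor Cd200r1 (-0.09) did not pass the test, and each of these was below the threshold in BV2 and in N18.

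The list of 22 signaling genes downstream of or beside TREM2, TYROBP and CSF1R was higher in BV2 with few exceptions. In BV2 against N18 20 were called higher, beside 21.9% of all genes and targets, and 2 lower, with a median of 1.73. In BV2 20 of the 22 were above the threshold, beside 53.3% of all. In N18 11 were above it, which is 50% and near the 55.4% of all. The adaptor Pik3ap1 (3.93, at least 8.0-fold), the exchange factor Vav1 (3.92, at least 10.3-fold) and Syk (3.48) had the largest differences. The Src family kinase Fyn (-0.70) and the adaptor Grb2 (-0.40) were lower in BV2. Against the plates labelled AtT20 20 were called higher, beside 26.6% of all, and 2 lower, of which only Fyn was also lower against N18. In this comparison 15 were called higher and 4 lower without normalization (median 0.93). Relative to the seminal proteins 21 were called higher and 0 lower (median 2.29). The median against N18 was between 1.72 and 2.56 over the scalings, with 17 to 20 called higher.

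Of 30 surface and lysosomal genes of macrophages and other leukocytes, 23 were called higher in BV2 than in N18, beside 21.9% of all. Of the rest 2 were called lower and 5 were not called, and the median was 1.56. The lipopolysaccharide receptor Cd14 was higher by 5.42 (adjusted p = 1.29e-13), at least 27.6-fold, the tetraspanin Cd53 by 4.62, at least 16.7-fold, and the adhesion receptor Adgre1, a marker of mature macrophages, by 4.55, at least 11.4-fold. The tetraspanins Cd63 (-3.64) and Cd9 (-0.60) were lower in BV2. In BV2 26 of the 30 were above the threshold, against 9 in N18 cells and 9 on the plates labelled AtT20. Of all genes and targets 53.3%, 55.4% and 35% were above it, in the same order. The median of the list against N18 was between 1.56 and 2.49 over the scalings, with 20 to 25 called higher.

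The list of 28 further microglia genes was divided. In BV2 against N18 10 were called higher, beside 21.9% of all genes and targets, 5 were called lower and 13 were not called. The median was 0.18 and turned to -0.07 relative to the seminal proteins. The protease Ctss (3.66, at least 7.0-fold), the sialic acid receptor Cd33 (2.14, at least 2.9-fold) and the fatty acid receptor Gpr84 (1.82) were higher in BV2. The matrix protein Sparc (-3.71) and the secreted glycoprotein Olfml3 (-1.40) were lower, although both are listed as microglia genes, and neither was above the threshold in BV2. In BV2 15 of the 28 were above the threshold, which is 53.6% and near the 53.3% of all genes. Against the plates labelled AtT20 8 were called higher and 13 lower, beside 6687 and 11808 of all 25128 genes and targets. Relative to the seminal proteins this was 16 and 4, beside 12668 and 4413 of all.

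**Figure D4:**
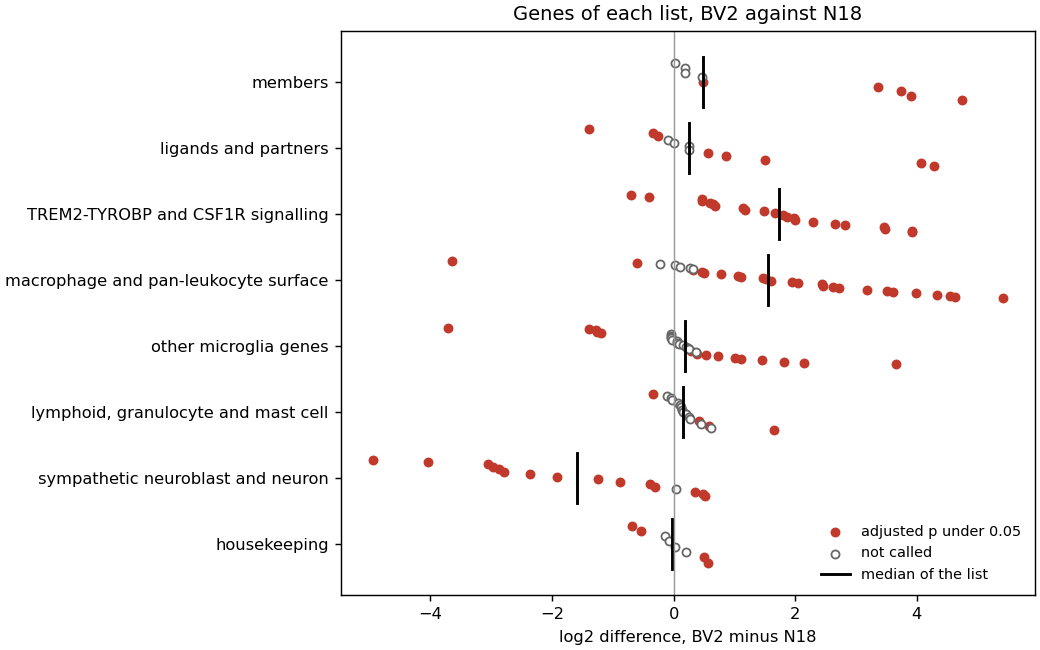
Log2 difference between BV2 and N18 (x axis) of the genes on 8 lists (y axis). Red points passed an adjusted p of 0.05, open points did not, and the black bar is the median of a list. The signaling list (median 1.73) and the macrophage and leukocyte surface list (1.56) were shifted to BV2 and the neuron list (-1.58) to N18, while the members split into 4 genes above 3 and 5 genes below 0.5.

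Lists of other cell types were read in the same way for BV2 against N18, where 5495 of all 25128 were called higher and 4775 lower. Of 16 sympathetic neuroblast and neuron genes 3 were called higher and 12 lower, led by Chgb (-4.95), Gap43 (-4.04) and Tubb3 (-3.05), and the 3 called higher, Nefm (0.51), Th (0.48) and Nefl (0.35), differed by little and were not called without normalization or relative to the seminal proteins. Of 17 lymphoid, granulocyte and mast cell genes 3 were called higher, S100a8 (1.65), Cd3e (0.58) and Cd3d (0.41), and Lck (-0.33) was lower, while 7 were called higher with the 8 arrays of the pair alone. Of 6 fibroblast genes 0 were called higher and Pdgfra (-1.36) and Col1a1 (-0.46) were lower. Of 7 corticotroph genes Crhr1 (-2.08) and Pitx1 (-0.34) were lower, and Tbx19 (0.38) was higher after quantile normalization but at -0.02 relative to the seminal proteins. Of 8 housekeeping genes Hprt (0.57) and Actb (0.49) were higher and Tubb5 (-0.68) and Tbp (-0.53) lower, and the signs of Hprt and Actb turned relative to the seminal proteins.

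The genes most like the members were found from the mean profile of the 9 measured genes over the 12 arrays, each first centered on its own mean, among 17268 other genes with a symbol. They were the chemokine Ccl2 (Pearson r = 0.998), the proteoglycan core Srgn (0.998), Syk (0.997), the exchange factor Arhgef6 (0.997) and the collagenase Mmp13 (0.997). The 12 arrays fall into 3 lines, so a high r says that a gene was higher in BV2 and similar in both other lines. Ccl2 and Syk were above the threshold in all 3 lines. The mean profile, to which each member contributes, was followed by Csf1r (0.997), Ptprc (0.991), Itgam (0.980) and Tyrobp (0.962), less by P2ry12 (0.52), and hardly by Tmem119 (0.24), Aif1 (0.06), Cx3cr1 (-0.03) and Trem2 (-0.10), so the 5 genes resemble the first 4 members and not the others. In BV2 against N18 their differences were 4.12, 4.82, 3.48, 4.14 and 1.65 on the log2 scale.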

How the data were processed

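The deposited values are log2 Cy3 intensities of 72000 probes on 12 arrays, put on the log2 scale by the authors, with no background subtraction or normalization between arrays found in them. The array design is MM8. Probes were grouped into 25631 targets, and 69.4% of the targets were given a symbol from a RefSeq table (GRCm38.p6), of which only names and promoter sequences were used. No protein sequences were used.

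Linear intensities of the probes were averaged for each target, and the log2 values of several targets were averaged for each gene. Lines were compared in R 4.3.3 with limma 3.58.1 (eBayes with an intensity trend) over all 12 arrays after quantile normalization, without a replicate block, and a gene was called at an adjusted p under 0.05 over 25128 genes and targets. The threshold of the level was 2 SD of the 10 seminal proteins, after the study's methods. A lower bound on a fold uses, on each array of the dim line, the higher of the threshold and the gene's own level, and is the smallest of the bounds with quantile normalization, with none and relative to the seminal proteins. The fit was tested on simulated data for BV2 against N18 with 25128 genes, 200 of them changed. It recovered 91.5% of changes of 1 on the log2 scale and 27% of changes of 0.5. In the data 10270 genes and targets were called in this comparison, far more than the 200 changed in the simulation. The adjustment over all genes therefore differs, and these shares do not give the sensitivity in the data. Signal over background and the number of arrays limit the precision.

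Named beyond the members are all ligands and partners, at most 3 called genes of largest difference in each direction of each other list, and the 5 genes of most similar profile; genes named for a marker check were chosen after their values were seen. The members and lists were chosen with earlier results of these data known. A result that this rule would name is not reported here. Clec7a, Cd8a and Ly6g had no matched transcript and are not analysed here. Mapping used pandas 2.3.3 and numpy 2.4.6 in Python 3.11.15, and figures used matplotlib 3.10.9.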

Additional observations from a re-analysis of the deposited data

How the results depend on the processing

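Csf1r, Itgam, Ptprc and Tyrobp kept their direction and their call in BV2 against N18 and in BV2 against the plates labelled AtT20 under all 20 alternatives. In BV2 against N18 the values were 4.54 to 6.12, 3.54 to 4.57, 3.61 to 5.35 and 2.81 to 4.07. The number of members called in this comparison was 4 to 7. With only the 8 arrays of the pair 7 were called, P2ry12 (0.61) and Cx3cr1 (0.24) among them. Of all genes and targets 5495 were called higher in BV2 than in N18, against 9062 with these 8 arrays, 1905 without normalization and 3296 relative to the seminal proteins.

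With a minimum difference of 1, 4 members were called in BV2 against the plates labelled AtT20, beside 7102 of all 25128 genes and targets. In N18 against these plates 0 members were called, beside 7883 of all, and 4 member probes, beside 24246 of all 72000. Without normalization 8 members were called in N18 against these plates, beside 20858 of all 25128 genes and targets. The member probes called were 22 there, beside 59647 of all 72000 probes, and 26 in BV2 against these plates, beside 61558. With the median of the probes 4 members were called in BV2 against these plates, beside 16302 of all 25128. On the plates labelled AtT20 1 member was above the threshold with 3 SD (6854 of all 25128) or with all 4 plates required (6098). Also 1 was above it with olfactory receptor genes as controls (5580) or with 1 threshold for the lines (6769). With the median of the probes (6175) or with at least 2 probes required (4695) 0 members were above it. In the main setting 8788 of all genes and targets were above it. In BV2 the number of members above it was 5 with the median of the probes or with at least 2 probes and 4 with olfactory receptor genes. In N18 it was 1 with the median of the probes, with at least 2 probes or with olfactory receptor genes.

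Every reversed value belonged to a difference under 1 on the log2 scale. Without normalization these were Aif1 in BV2 against N18 (-0.20), against the plates labelled AtT20 (-1.0) and in N18 against those plates (-0.80), Trem2 in BV2 against N18 (-0.25), P2ry12 in BV2 against the plates labelled AtT20 (-0.89) and Tyrobp in N18 against them (-0.30). Relative to the seminal proteins they were Aif1 (-0.23) and Trem2 (-0.28) in BV2 against N18, Cx3cr1 (0.14), Tmem119 (0.52) and Trem2 (0.42) in BV2 against the plates labelled AtT20, and Cx3cr1 (0.14), Tmem119 (0.24), Trem2 (0.70) and Itgam (0.68) in N18 against them. With the median of the probes they were Aif1 (-0.094) and Trem2 (0.13) in BV2 and Aif1 (-0.22) and Itgam (0.063) in N18 against those plates, and with the mean of log2 probes Aif1 in N18 (-0.0028). The cause was not tested.

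Leaving out 1 plate at a time, 5 to 6 members were called in BV2 against N18, 7 to 8 in BV2 and 5 to 6 in N18 against the plates labelled AtT20. Without AtT20 replicate 3 P2ry12 passed the test in BV2 against N18 (0.50) and against these plates (0.57) and Itgam (-0.24) in N18 against them, and without AtT20 replicate 2 Tyrobp (0.39) did. Values that changed sign ranged from -0.016 to 0.081 for Aif1 in BV2 against N18, from -0.11 to 0.26 for Aif1 in BV2 and from -0.14 to 0.23 in N18 against the plates labelled AtT20, and from -0.37 to 0.073 for P2ry12 in N18 against them. Without AtT20 replicate 1 Cx3cr1 was above the threshold there, which made 3 members.

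The replicate numbers did not pair the plates: the correlation of same-numbered plates was between -0.105 and 0.319, with 3 of 12 pairs over 0.1 and 4 of 12 best matched by their own number. With a replicate block 5, 7 and 5 members and 15, 17 and 10 member probes were called in the 3 comparisons, against 5, 7 and 5 and 15, 17 and 9 without it. The low signal of Aif1, P2ry12 and Cx3cr1 over background limits what can be said of these genes.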
